A study of Mus musculus with 12 samples.

Results

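Pyruvate stands at a branch point of glucose use. Examined here were 6 genes whose proteins carry pyruvate or its reduced form, lactate, or convert one to the other: Mpc1, Mpc2, Ldha, Ldhb, Slc16a1 and Slc16a3. The cells were mouse CD8+ T cells expanded with or without dichloroacetate (DCA). The 6 genes were chosen by name, for the step their proteins carry out, from the 56748 genes of the count table. All 6 were counted in every library and all 6 were among the 15688 genes tested. The gene identifiers were ENSMUSG00000023861 (Mpc1), ENSMUSG00000026568 (Mpc2), ENSMUSG00000063229 (Ldha), ENSMUSG00000030246 (Ldhb), ENSMUSG00000032902 (Slc16a1) and ENSMUSG00000025161 (Slc16a3).

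The cells came from the spleens of mice with a transgenic T cell receptor. Peptide was given for 24 hours (250 nM SIINFEKL for OT-1 cells, 1 uM gp100 for pmel-1 cells), 6 more days of growth with IL-2 followed in 5 mM DCA or in none, and CD8 cells were sorted on day 7. The drug blocks the kinases that switch off pyruvate dehydrogenase. Bulk RNA sequencing of amplified cDNA was done in 2 experiments with 3 mice each, and every mouse gave 1 untreated and 1 DCA library, so that 4 groups of 3 libraries were compared. For experiment 2 all labels name Pmel-1 (background B6.Cg-Thy1a/Cy with the transgene Tg(TcraTcrb)8Rest/J). The labels of experiment 1 disagree: its titles say Pmel-1, and its strain tag says OT-1, with the genotype C57BL/6-Tg(TcraTcrb)1100Mjb/J. The labels also name 2 technical batches, and strain, batch and experiment cannot be told apart. All groups carried a transgenic receptor and shared a peptide stimulation, IL-2 in culture and the CD8 sort, but whether the receptor and the peptide were the same in both experiments cannot be told from these labels.

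In the cytosol, lactate dehydrogenase turns pyruvate into lactate and back, using NADH. The enzyme is a tetramer of A chains (from Ldha), which are abundant in glycolytic cells, and B chains (from Ldhb), which are abundant in oxidative tissues such as heart. Pyruvate enters mitochondria through a carrier of the inner membrane that is built from MPC1 and MPC2, and there it meets pyruvate dehydrogenase. Lactate leaves or enters the cell together with a proton through the monocarboxylate carriers MCT1 (Slc16a1) and MCT4 (Slc16a3), which need a partner protein, basigin or embigin, to reach the cell surface. Activated T cells are known for high glycolysis and lactate release.

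The letters just before the start site are shown for both dehydrogenases and both lactate carriers, since Ldha and Slc16a3 differed most between the experiments while Ldhb was the member that responded most to DCA. Each run gives the 250 bases before the first RefSeq start of the gene in the reference build GRCm38.p6, 5' to 3' on the gene's own strand, at chr7:46845554-46845803 on the plus strand for Ldha, chr6:142507958-142508207 on the minus strand for Ldhb, chr3:104638414-104638663 on the plus strand for Slc16a1 and chr11:120948817-120949066 on the plus strand for Slc16a3. Capitals mark CACGTG, the E-box that MYC and MAX can bind, and ACGTG or GCGTG, the core letters of hypoxia response elements, on either strand.
Ldha: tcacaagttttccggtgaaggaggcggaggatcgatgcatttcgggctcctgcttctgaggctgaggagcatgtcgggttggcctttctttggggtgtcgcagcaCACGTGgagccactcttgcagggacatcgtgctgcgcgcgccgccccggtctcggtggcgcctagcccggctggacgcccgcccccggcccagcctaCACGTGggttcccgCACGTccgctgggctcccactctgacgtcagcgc
Ldhb: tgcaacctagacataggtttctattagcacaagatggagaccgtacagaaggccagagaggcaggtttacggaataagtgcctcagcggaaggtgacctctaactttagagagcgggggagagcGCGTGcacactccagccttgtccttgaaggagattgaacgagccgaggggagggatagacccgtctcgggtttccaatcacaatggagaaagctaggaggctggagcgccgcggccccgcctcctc
Slc16a1: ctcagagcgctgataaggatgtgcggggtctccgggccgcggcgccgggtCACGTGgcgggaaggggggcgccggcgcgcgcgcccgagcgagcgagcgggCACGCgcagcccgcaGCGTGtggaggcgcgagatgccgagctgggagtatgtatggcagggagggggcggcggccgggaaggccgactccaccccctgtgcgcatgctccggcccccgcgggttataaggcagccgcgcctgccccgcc
Slc16a3: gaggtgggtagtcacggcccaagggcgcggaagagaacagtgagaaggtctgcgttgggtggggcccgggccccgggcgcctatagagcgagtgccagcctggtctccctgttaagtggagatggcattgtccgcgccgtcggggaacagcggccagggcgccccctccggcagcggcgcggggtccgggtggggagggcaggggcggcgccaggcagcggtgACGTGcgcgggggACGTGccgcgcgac

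The Ldha window held 2 E-boxes, first bases at -145 and -48 from the start, and 1 further ACGTG on the other strand at -34. The Slc16a1 window held 1 E-box at -200 and 2 copies of GCGTG. The Slc16a3 window held no E-box and 2 copies of ACGTG, at -27 and -14. The Ldhb window held neither an E-box nor ACGTG, and 1 GCGTG at -126. The windows before the first start of Mpc1 and of Mpc2 each held 1 GCGTG and no E-box or ACGTG. Every E-box contains ACGTG on both strands. Among 32851 promoter windows of the same length, 6.02% held CACGTG, 16.6% held ACGTG and 28.2% held GCGTG on either strand. The other motifs searched were the CRE (TGACGTCA, in 1.55% of windows), the GC box (GGGCGG, in 32.7%) and the TATA box (TATAAA, in 12.4%). Of the first windows of the 6 genes, that of Ldha held a CRE, all but that of Ldhb held a GC box, and none held TATAAA. Ldha and Mpc1 each have a further RefSeq start. The window before that of Ldha held no E-box, ACGTG, CRE or GC box, and 1 GCGTG at -59. The one of Mpc1 held a GC box and none of the other motifs. Which start the cells used was not examined. Such a match is a string of letters, and binding was not measured here.

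Library totals were 28039699 to 41051066 counts, with 18382 to 19551 genes detected per library in experiment 1 and 23635 to 26571 in experiment 2. The CD8 T cell list (Cd8a, Cd8b1, Cd3d, Cd3e, Cd3g) summed to 3580 to 4998 CPM in all 12 libraries, and Cd4 was at most 0.638 CPM. The CD8 sum shifted between arms without overlap, upward with the drug in experiment 1 (untreated 3580 to 4289, DCA 4325 to 4717) and downward in experiment 2 (untreated 4487 to 4998, DCA 3776 to 3952). Cd3e ranged over 74.0 to 105 CPM (experiment 1) and 328 to 455 CPM (experiment 2). Cd8a and Cd8b1 were also higher in experiment 2, while Cd3d and Cd3g overlapped. CPM are counts scaled to library size. For the marker lists, here and below, library totals alone were used, and for the other genes TMM factors were applied as well. Those factors ran from 0.818 in experiment 1 untreated to 1.17 in experiment 2 with DCA, so the marker values are on another scale than those of the 6 genes. The marker sums were not compared with TMM factors applied. Of the 15688 genes tested, 2638 (16.8%) passed an adjusted p of 0.05 for DCA against untreated over both experiments (edgeR quasi-likelihood test, Benjamini-Hochberg adjustment), 1100 higher (7.01%) and 1538 lower (9.8%). That split depended on the scaling: it was 1231 higher and 1041 lower after cyclic loess normalization, and 1677 and 798 with library totals alone. Within experiment 1, 2622 genes (16.7%) passed, 889 higher (5.67%) and 1733 lower (11%; 1069 and 1027 with cyclic loess, 1483 and 821 with library totals). Within experiment 2, 717 (4.57%) passed, 372 higher (2.37%) and 345 lower (2.2%; 391 and 216, and 493 and 210). The DCA effect differed between the experiments for 52 genes (0.331%), 44 of them with the more positive value in experiment 2 (0.28%) and 8 with the more negative one (0.051%; 25 and 10 with library totals).

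Of the 6 carrier and dehydrogenase genes, 1 rose and 3 fell with DCA over both experiments, against the 16.8% of all tested genes called. Ldhb rose, by 0.88 on the log2 scale (SE 0.13), and Mpc1, Slc16a1 and Ldha fell by 0.28, 0.27 and 0.17, although cyclic loess normalization put Ldha at 0.0063. The 6 had a median log2 fold change of -0.15, and all tested genes one of -0.015. Ldhb was also the one member called in both experiments taken singly. No member was called for a difference of the DCA effect between the experiments (interaction contrast of edgeR, adjusted p 0.443 to 0.895).

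**Figure D1:**
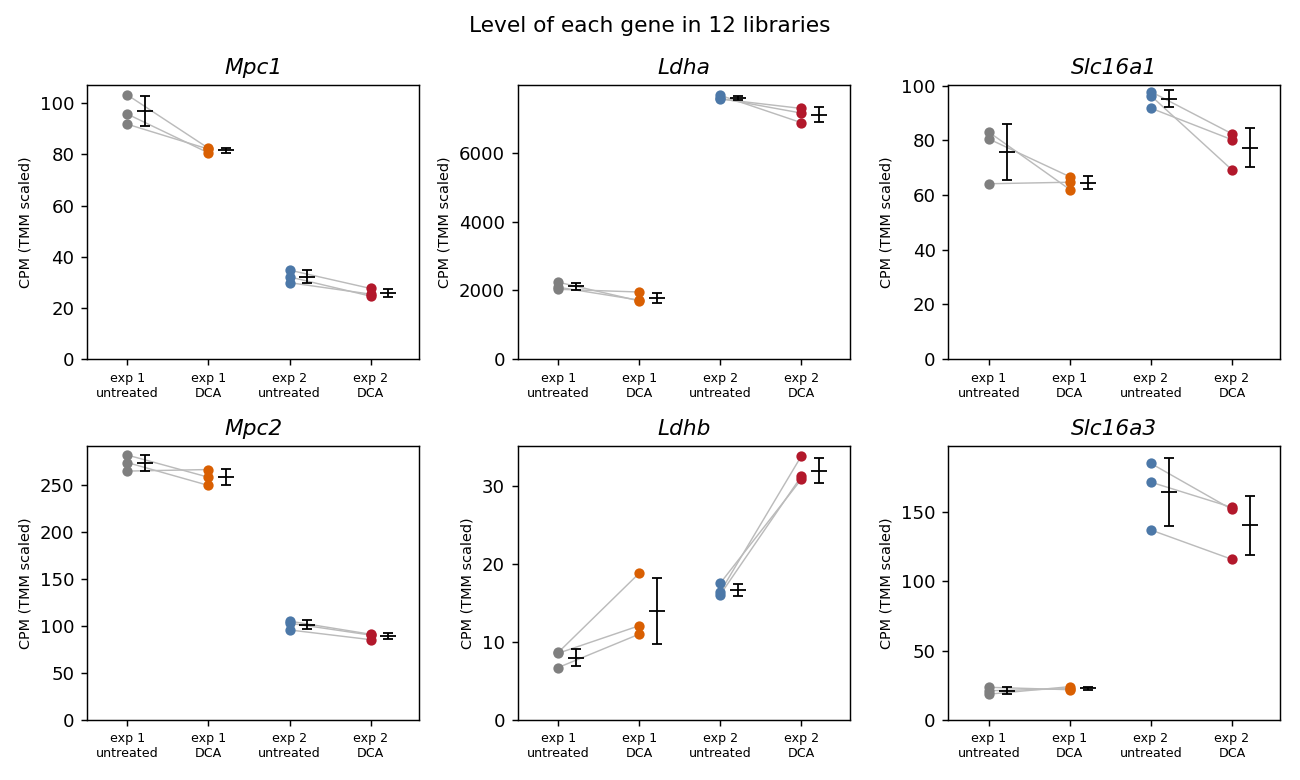
Level of each of the 6 genes in CPM (vertical axis, starting at 0) in the 12 libraries. Points are libraries, grey lines join the untreated and DCA libraries of 1 mouse, and black bars give mean and SD (n = 3). Ldhb was higher with DCA in 6 of 6 mice, and experiment 2 stood at 115 to 185 CPM of Slc16a3 against 18.5 to 23.9 CPM in experiment 1.

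The mitochondrial pyruvate carrier comes first. Mpc1, which encodes one of its subunits, stood at 91.8, 95.7 and 103 CPM in the untreated libraries of experiment 1 and at 82.0, 80.6 and 82.4 CPM with DCA. It stood at 29.8, 32.1 and 34.8 CPM untreated and at 25.4, 24.6 and 27.6 CPM with DCA in experiment 2. All 6 DCA libraries were below all untreated libraries of the same experiment (29.3% of tested genes had such ranges without overlap in experiment 1 and 30.2% in experiment 2). The gene was lower in 6 of 6 mice, and 19.1% of tested genes moved the same way in all 6. Over both experiments Mpc1 fell by 0.28 on the log2 scale (SE 0.07, adjusted p = 0.00863, edgeR). The change was -0.25 in experiment 1 (SE 0.09, adjusted p = 0.0753) and -0.32 in experiment 2 (SE 0.09, adjusted p = 0.0634), neither of which passed. Experiment 1 passed in 1 of 22 alternatives. Experiment 2 passed in 4 of 22, among them edgeR with RLE factors (-0.35, adjusted p = 0.0476). In bulk RNA, fewer cells expressing a gene and less of its RNA per cell cannot be told apart, for Mpc1 and for every gene below. The call over both experiments was lost with cyclic loess normalization (-0.21, adjusted p = 0.0610), with library totals alone (-0.18, adjusted p = 0.0796) and without a term for experiment (-0.26, adjusted p = 0.979).

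A processed pseudogene, Mpc1-ps (ENSMUSG00000091498), matches the Mpc1 transcript at 99.7% of 330 bases, so reads of the gene may have been assigned to it. It held 6633 counts in all, and in single libraries 26.8% to 34.2% of the Mpc1 count. Its own level was 25.7 to 33.7 CPM in untreated cells of experiment 1 and 9.71 to 10.7 CPM in those of experiment 2. With such copies added to each gene, Mpc1 fell by 0.26 over both experiments (SE 0.06, adjusted p = 0.0141, edgeR). Near-identical copies of the other 5 genes together held at most 0.325% of the counts of their gene.

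Mpc2, which encodes the partner subunit, stood at 282, 274 and 265 CPM untreated and at 258, 249 and 266 CPM with DCA in experiment 1, where the groups overlapped. In experiment 2 it stood at 95.6, 103 and 105 CPM untreated and at 85.2, 90.1 and 91.0 CPM with DCA, and there the groups did not overlap. Mpc2 was lower with DCA in 5 of 6 mice, and its log2 fold change over both experiments was -0.14 (SE 0.05, adjusted p = 0.0777, edgeR), which did not pass. DESeq2 called it (-0.14, adjusted p = 0.0400). In experiment 1 alone its change of -0.08 (adjusted p = 0.429) turned positive with cyclic loess (0.09), with library totals (0.06) and with a filter at 5 CPM (0.0055).

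The RNAs of the 2 lactate dehydrogenase chains differed in their response to DCA. Ldhb was the only one of the 6 genes that rose with DCA in the edgeR test, and its groups did not overlap in either experiment. In experiment 1 it was read 172, 290 and 242 times in the untreated libraries, which is 6.71, 8.64 and 8.55 CPM, and it reached 10.998, 18.8 and 12.1 CPM with DCA. In experiment 2 it stood at 17.5, 16.1 and 16.4 CPM untreated and at 30.9, 31.3 and 33.9 CPM with DCA. The group means were 7.97 ± 1.09 and 14.0 ± 4.24 CPM in experiment 1 and 16.7 ± 0.769 and 32.0 ± 1.62 CPM in experiment 2 (SD, n = 3). The widest spread was in the DCA libraries of experiment 1, where mouse 2 stood above the other two.

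Ldhb rose by 0.88 on the log2 scale over both experiments (SE 0.13, adjusted p = 0.000547, edgeR), by 0.81 in experiment 1 (SE 0.19, adjusted p = 0.00907) and by 0.94 in experiment 2 (SE 0.18, adjusted p = 0.0102). Without DCA replicate 2 of experiment 1, the value in that experiment was 0.53 (adjusted p = 0.0315). It was higher in 6 of 6 mice, by 0.50 to 1.12. Among the alternatives over both experiments only the fit without a term for experiment lost the call (0.90, adjusted p = 0.383), and within experiment 2 only the fit without untreated replicate 2 did (0.88, adjusted p = 0.0599). In the authors' deposited table the log2 fold change of Ldhb was 0.88 with a false discovery rate of 0.00101, and it was the only one of the 6 genes with a rate under 0.05 there. The test behind that rate may differ from the one used here.

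Some markers of other cell types, scaled to library totals alone, moved in the same direction as Ldhb. The 5 genes of the B cell list summed to 12.6 to 18.2 CPM untreated and 27.3 to 38.2 CPM with DCA in experiment 1, and to 24.0 to 26.9 and 33.3 to 38.4 CPM in experiment 2. Nearly all of it was Cd79b (12.6 to 38.3 CPM), while Cd79a was at most 0.348, Ms4a1 at most 0.0344 and Cd22 at most 0.130 CPM. The 5 genes of the macrophage list summed to 7.91 to 10.9 and 10.9 to 30.5 CPM in experiment 1 and to 8.01 to 16.9 and 16.3 to 19.6 CPM in experiment 2. Cd68 made up most of that sum (6.16 to 27.3 CPM), with Cd14 at most 3.15, Lyz2 at most 0.447, Csf1r at most 0.0650 and Adgre1 at most 0.0344 CPM. The part of these markers in the rise of Ldhb was not tested.

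Ldha, by contrast, was the most abundant of the 6 genes, at 0.156% to 0.189% of all counts in experiment 1 and 0.807% to 0.856% in experiment 2. It stood at 2236, 2029 and 2090 CPM untreated and at 1692, 1950 and 1713 CPM with DCA in experiment 1. The untreated libraries of experiment 2 stood at 7567, 7674 and 7585 CPM and the DCA libraries at 7292, 6879 and 7157 CPM. The groups did not overlap in either experiment, and Ldha was lower with DCA in 6 of 6 mice at this scaling.

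Over both experiments Ldha fell by 0.17 (SE 0.05, adjusted p = 0.0168, edgeR), which cyclic loess turned to 0.0063 (adjusted p = 0.950). With a term per mouse the value was -0.17 and the adjusted p was 0.0525. The call was also lost with a filter at 5 CPM (-0.13, adjusted p = 0.0597), with library totals (-0.07, adjusted p = 0.264) and without a term for experiment (-0.13, adjusted p = 0.994). Ldha fell by 0.25 in experiment 1 (SE 0.06, adjusted p = 0.00965), and the change of -0.10 in experiment 2 (SE 0.06, adjusted p = 0.404) did not pass and turned to 0.050 with cyclic loess. Between the experiments the effects differed by 0.15 (SE 0.08, adjusted p = 0.443). The call in experiment 1 was lost without untreated replicate 2 (adjusted p = 0.0514) or 3 (0.0568), or DCA replicate 1 (0.0604) or 2 (0.0579), of experiment 2, at -0.20 in each of those fits, and also with cyclic loess (-0.04, 0.762), library totals (-0.11, 0.232), a filter at 5 CPM (-0.16, 0.0921) and the 6 libraries of experiment 1 alone (-0.17, 0.163).

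The other lactate dehydrogenase genes were hardly counted. Ldhc, the chain of the testis, had 3 counts over all 12 libraries, Ldhal6b had 0 and Ldhd, a mitochondrial D-lactate dehydrogenase, had 137.

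The ratio of Ldhb to Ldha within a library is not changed by a scaling with 1 factor per library. Cyclic loess, which scales by level within a library, gave DCA effects of 0.83 for Ldhb and 0.0063 for Ldha. Per base of the gene length in the authors' table, it was 0.633%, 0.898% and 0.862% in untreated cells of experiment 1 and 1.37%, 2.04% and 1.49% with DCA. In experiment 2 it was 0.489%, 0.441% and 0.456% untreated and 0.893%, 0.958% and 0.997% with DCA. The lowest DCA library of each experiment lay above its highest untreated library. Ldhb made up 0.439% to 1.99% of the summed per-base level of both genes over the 12 libraries.

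With DCA the ratio rose in 6 of 6 mice, 2.05-fold on average, by 1.03 ± 0.163 on the log2 scale (SD, n = 6 mice; exact two-sided sign-change test over mice, p = 0.03125, which is the lowest possible with 6 pairs; 0.0469 after adjustment over 3 ratios). That adjusted value depends on the ratio of Mpc1 to Mpc2 as well, which had the same unadjusted p. The adjusted p was 0.0938 without any 1 mouse and with the counts of near-identical copies added, with the rise at 1.00 to 1.08 and 1.03. Without 1 mouse, 5 pairs cannot bring even the unadjusted p under 0.05. The mean rise was 2.04-fold in experiment 1 and 2.05-fold in experiment 2, and the difference between them was 0.0119 on the log2 scale (exact two-sided permutation test, p = 0.8; 3 against 3 mice cannot go below 0.1). In single mice it was 1.12, 1.18 and 0.786 in experiment 1 and 0.870, 1.12 and 1.13 in experiment 2. The absolute ratio of Ldhb to Ldha depends on the length used: with the annotated principal transcripts, the untreated ratio was 0.512% in experiment 1 and 0.297% in experiment 2, against 0.798% and 0.462% with the deposited lengths. The change with DCA does not depend on it.

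**Figure D2:**
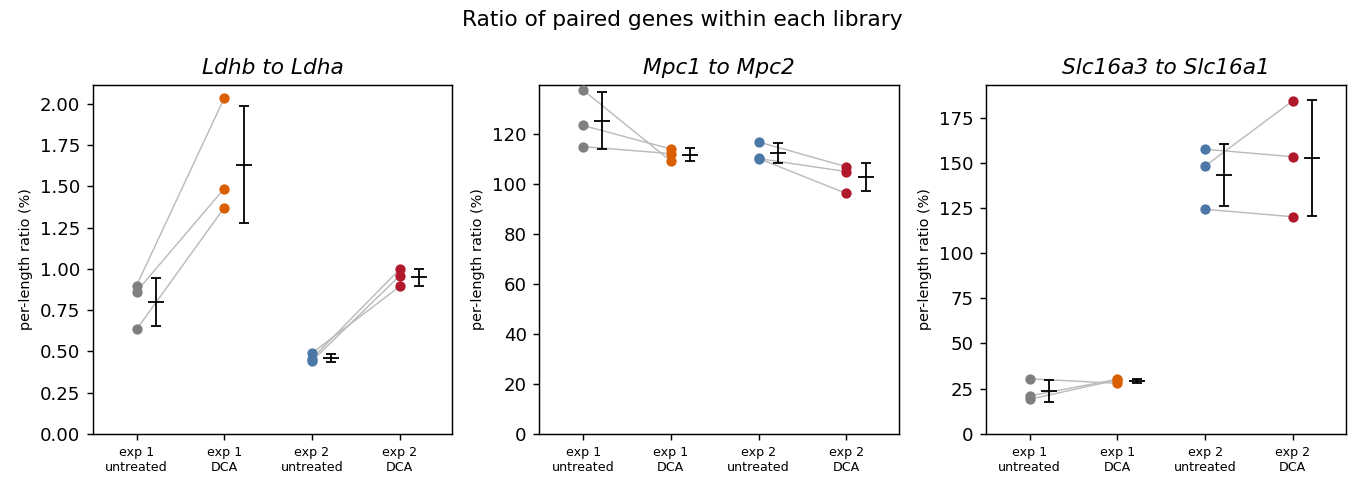
Ratio of paired genes within each library, in percent per base of deposited gene length (vertical axes, starting at 0), in the 4 groups. Points are libraries, grey lines join the libraries of 1 mouse, and black bars give mean and SD (n = 3). Every line of the Ldhb to Ldha panel goes up from untreated to DCA, and the Slc16a3 to Slc16a1 panel separates the experiments (23.5% against 143% in untreated cells).

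Of the 2 lactate carriers, Slc16a3 differed more between the experiments than with DCA. For Slc16a1 the 2 gaps were of similar size in edgeR (0.33 between untreated cells of the experiments and -0.27 with DCA). Slc16a1, which encodes MCT1, stood at 83.0, 80.5 and 64.1 CPM untreated and at 62.0, 66.7 and 64.7 CPM with DCA in experiment 1, where the groups overlapped through untreated replicate 3. In experiment 2 it stood at 97.8, 96.3 and 91.8 CPM untreated and at 82.4, 69.2 and 80.3 CPM with DCA, without overlap. It was lower with DCA in 5 of 6 mice.

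Over both experiments Slc16a1 fell by 0.27 (SE 0.07, adjusted p = 0.0213, edgeR), and neither experiment passed singly (-0.24, adjusted p = 0.141, and -0.30, adjusted p = 0.119). The call was lost with cyclic loess (-0.17, adjusted p = 0.138), with library totals (-0.17, adjusted p = 0.140), without a term for experiment (-0.27, adjusted p = 0.562), and without untreated replicate 1 of experiment 1 (-0.24, 0.0538), untreated replicate 1 (-0.25, 0.0527) or 2 (-0.25, 0.0646) or DCA replicate 2 (-0.22, 0.0699) of experiment 2. Without untreated replicate 3 of experiment 1, the change within that experiment passed (-0.34, adjusted p = 0.0226).

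Slc16a3, which encodes MCT4, the carrier known from cells that release much lactate, stood at 20.95, 18.5 and 23.4 CPM untreated and at 22.5, 23.9 and 21.7 CPM with DCA in experiment 1. Experiment 2 had 185, 172 and 137 CPM untreated and 152, 153 and 116 CPM with DCA. The untreated and DCA ranges overlapped in both experiments, and the third mouse of experiment 2 was the lowest in both arms. The log2 fold change with DCA was -0.06 over both experiments (SE 0.10, adjusted p = 0.737, edgeR), 0.12 in experiment 1 and -0.23 in experiment 2, none of which passed. The value over both experiments turned positive with cyclic loess (0.027), with library totals (0.032) and without DCA replicate 3 of experiment 2 (0.015).

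The other 2 ratios were tested in the same way. Mpc1 to Mpc2 was lower with DCA in 6 of 6 mice, 0.904-fold, by -0.15 ± 0.107 on the log2 scale (SD, n = 6 mice; exact two-sided sign-change test over mice, p = 0.03125, adjusted over 3 ratios 0.0469). With the counts of near-identical copies added the value was -0.12 and the adjusted p was 0.0938, as it was without any 1 mouse. That ratio also depends on the length used, at 125% and 112% in the untreated cells of experiments 1 and 2 with the deposited lengths and 38.0% and 34.1% with the principal transcripts. Slc16a3 to Slc16a1 was higher in 3 of 6 mice and lower in 3, at 0.21 ± 0.328 (SD, n = 6 mice; exact two-sided sign-change test over mice, p = 0.25, adjusted 0.25).

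**Figure D3:**
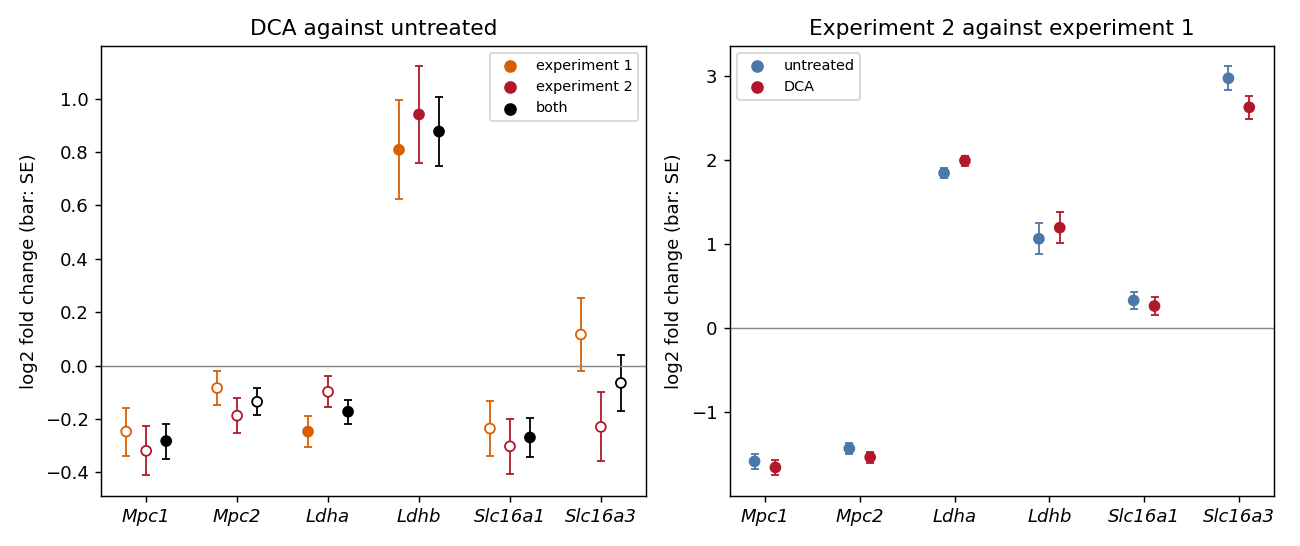
Log2 fold change (vertical axis; bars are SE) of each gene for DCA against untreated (left panel: experiment 1, experiment 2 and both) and for experiment 2 against experiment 1 (right panel: untreated and DCA cells). Filled points passed an adjusted p of 0.05. Ldhb is filled in all 3 DCA comparisons, at 0.81 to 0.94, and all 6 genes are filled in the right panel, from -1.66 for Mpc1 to 2.97 for Slc16a3.

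All 6 genes differed between the experiments, in untreated cells and in DCA cells. In untreated cells 8131 tested genes (51.8%) passed, 4182 higher in experiment 2 (26.7%) and 3949 lower (25.2%), and in DCA cells 8198 (52.3%), 4414 higher (28.1%) and 3784 lower (24.1%). The ranges of the 2 experiments did not overlap for any of the 6 in either arm, nor for 59.9% and 61.5% of tested genes. With library totals alone these splits were 6539 and 2378, and 6199 and 2453, since the median of all genes moved from 0.11 to 0.53 in untreated cells and from 0.11 to 0.45 in DCA cells. The direction of each of the 6 genes was kept in all 21 alternatives of both comparisons, cyclic loess and library totals included. Both carrier subunits were lower in experiment 2, and both dehydrogenases and both lactate carriers were higher.

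Slc16a3 had the widest gap, 7.85-fold in untreated cells (log2 2.97, SE 0.14, adjusted p = 3e-10, edgeR) and 6.18-fold with DCA. With cyclic loess the gaps of Slc16a3 and Ldha were 3.14 and 3.07 in untreated cells, and Ldha had the wider one with DCA (log2 2.69 and 3.15). Ldha was 3.59-fold higher in untreated cells of experiment 2 (log2 1.84, SE 0.06, adjusted p = 1.28e-11) and 3.98-fold higher with DCA (log2 1.99), which cyclic loess moved by over 1.5 times on the log2 scale. Ldhb was 2.09-fold and 2.29-fold higher (log2 1.06, SE 0.19, adjusted p = 0.000208, and 1.19, SE 0.18, adjusted p = 6.04e-05). Mpc1 was at 0.333 and 0.317 of its level in experiment 1 (log2 -1.59 and -1.66), and Mpc2 at 0.370 and 0.344 (log2 -1.43 and -1.54). The gap of Slc16a1 was the smallest, 0.33 untreated (SE 0.10, adjusted p = 0.0151) and 0.26 with DCA (SE 0.10, adjusted p = 0.0461). It was wider with cyclic loess (0.60 and 0.42) and with library totals (0.76 and 0.60). The untreated gap of Slc16a1 lost its call without untreated replicate 3 of experiment 1 (0.22, adjusted p = 0.0674), and its gap with DCA lost it in 12 of 21 alternatives, among them the fits without any 1 DCA library of experiment 1 or any 1 library of experiment 2 other than DCA replicate 2 (adjusted p 0.0586 to 0.192). Natural killer cell markers, scaled to library totals alone, also differed between the experiments. They stood at 5.01 to 11.7 CPM summed over 3 genes in experiment 1 and 0.0579 to 1.34 CPM in experiment 2, nearly all of it Klrb1c. The part of Klrb1c in these gaps was not tested.

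In the order of the 4 groups, Ldha ran from experiment 2 untreated through experiment 2 with DCA and experiment 1 untreated to experiment 1 with DCA, with no overlap between neighbours. Mpc1 ran from experiment 1 untreated through experiment 1 with DCA and experiment 2 untreated to experiment 2 with DCA, also with no overlap. Ldhb was highest in experiment 2 with DCA, and its untreated cells of experiment 2 overlapped with the DCA cells of experiment 1 (16.1 to 17.5 and 10.998 to 18.8 CPM). Slc16a1 was highest in experiment 2 untreated, and the neighbours after it overlapped. Per kilobase of deposited length, Ldha stood at 640 CPM per kb in untreated cells of experiment 1 and 2299 in those of experiment 2, Ldhb at 5.07 and 10.6, Slc16a1 at 17.1 and 21.5, and Slc16a3 at 3.94 and 30.9. By that measure MCT1 transcripts outnumbered MCT4 transcripts in experiment 1 and were outnumbered by them in experiment 2, in untreated cells with either set of lengths (23.5% and 143%, or 28.8% and 176%, for Slc16a3 to Slc16a1).

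Genes that work beside these 6 were taken from lists made by function. Their counts with DCA over both experiments stand against 7.01% of all tested genes called higher and 9.8% called lower. Of 7 transport partners and further lactate or pyruvate transporters, 3 could be tested, 1 rose and none fell with DCA over both experiments. Emb, which encodes embigin, rose by 0.35 (SE 0.06, adjusted p = 0.0019, edgeR), from 279 ± 31.4 to 363 ± 17.2 CPM in experiment 1 and from 224 ± 20.9 to 281 ± 10.99 CPM in experiment 2 (SD, n = 3). Bsg, which encodes basigin, was more abundant, at 908 ± 76.5 and 877 ± 93.9 CPM in experiment 1 and 1368 ± 120 and 1477 ± 24.7 CPM in experiment 2. Its log2 fold change of 0.03 (adjusted p = 0.804, edgeR) did not pass, while cyclic loess gave 0.20 (adjusted p = 0.0311). Slc16a7 (MCT2) had 80 counts over all libraries, and the lactate receptor gene Hcar1 had 5.

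Of 12 other members of the Slc16 family, 6 could be tested. This list shares Slc16a7, which was tested, and Slc16a8, which was not, with the transport partners above. Slc16a10, which encodes a carrier of aromatic amino acids, rose by 0.60 (SE 0.17, adjusted p = 0.0279, edgeR), a call that the term per mouse ended (0.59, adjusted p = 0.0674). The call was also lost with cyclic loess (0.51, adjusted p = 0.0519) and without untreated replicate 1 or 3 or DCA replicate 3 of experiment 1 or untreated replicate 2 or DCA replicate 2 of experiment 2 (adjusted p 0.0531 to 0.0835). Slc16a6 fell by 0.49 (SE 0.11, adjusted p = 0.00599), from 28.1 ± 1.79 to 18.0 ± 3.96 CPM in experiment 1 and from 42.3 ± 3.99 to 33.6 ± 0.905 CPM in experiment 2 (SD, n = 3).

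Among 10 tested of 11 enzymes that use pyruvate or alanine, 1 rose and 3 fell (7.01% and 9.8% of all tested genes). The 3 were parts of the pyruvate dehydrogenase complex: Dlat, its E2 chain (-0.31, SE 0.09, adjusted p = 0.0224, edgeR), Pdhx, which holds E3 to E2 (-0.29, SE 0.07, adjusted p = 0.0126), and Dld, its E3 chain (-0.20, SE 0.06, adjusted p = 0.0419). With the term per mouse Dld had an adjusted p of 0.0850. Library totals ended the call of all 3, cyclic loess that of Dlat and Dld, and no filter on low counts that of Pdhx (adjusted p = 0.0707) and Dld. Dlat also lost it without untreated replicate 2 or DCA replicate 3 of experiment 1 or untreated replicate 1 or 2 or DCA replicate 1 of experiment 2 (adjusted p 0.0501 to 0.0666), and Dld without any 1 library other than untreated replicate 1 or DCA replicate 3 of experiment 2 (adjusted p 0.0528 to 0.119). Me1, the cytosolic malic enzyme that makes pyruvate and NADPH from malate, rose by 1.80 (SE 0.47, adjusted p = 0.0153) at low counts, from 0.724 ± 0.564 to 2.27 ± 1.25 CPM (SD, n = 6).

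The malate-aspartate and glycerol phosphate shuttles move the electrons of cytosolic NADH that lactate dehydrogenase would otherwise use. Of 8 tested genes of 9, none rose and 3 fell (9.8% of all tested genes fell): Got1 (-0.43, SE 0.09, adjusted p = 0.0055, edgeR), Mdh2 (-0.38, SE 0.06, adjusted p = 0.00124) and Slc25a12 (-0.21, SE 0.07, adjusted p = 0.0465). Mdh2 and Got1 were called in every alternative but the fit without a term for experiment, with Mdh2 at -0.22 under cyclic loess. The call of Slc25a12 was lost with the term per mouse (adjusted p = 0.117), with cyclic loess, library totals and either other filter, and with any 1 library left out other than untreated replicate 2 or DCA replicate 2 of experiment 1 (adjusted p 0.0805 to 0.111).

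The 5 enzymes of lower glycolysis, which feed pyruvate to all of these steps, were all higher in experiment 2, by 0.65 (Pgk1) to 2.34 (Pkm) in untreated cells, where 26.7% of tested genes were called higher. With cyclic loess these gaps were 1.58 (Pgam1) to 3.32 (Pkm), with Pgk1 at 1.63 and Eno1 at 2.42. Over both experiments DCA raised Pgk1, phosphoglycerate kinase, by 0.21 (SE 0.06, adjusted p = 0.0217, edgeR; 0.0546 with the term per mouse), and by 0.38 with cyclic loess. Eno1, enolase, fell by 0.25 (SE 0.06, adjusted p = 0.0117), a call lost with cyclic loess (-0.07, adjusted p = 0.489) and with library totals (-0.15, adjusted p = 0.0969). The call of Pgk1 was lost without untreated replicate 1 (adjusted p = 0.0508) or DCA replicate 2 (0.0542) of experiment 1 or untreated replicate 1 of experiment 2 (0.0633).

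Of 6 transcription factors known to act on these genes, 5 could be tested and 1 was called over both experiments. Hif1a, the oxygen-regulated chain of hypoxia-inducible factor 1, fell by 0.50 (SE 0.06, adjusted p = 0.000122, edgeR). It went from 184 ± 3.68 to 122 ± 6.22 CPM in experiment 1 and from 250 ± 20.1 to 189 ± 1.86 CPM in experiment 2 (SD, n = 3), and it passed in both experiments singly. Hif1a RNA does not show the level of the protein, which is set largely by its breakdown. Within experiment 1, 3 of the 5 were called lower: Hif1a, Max and Myc. Max fell by 0.76 there (SE 0.15, adjusted p = 0.0039, edgeR), and its change of 0.21 in experiment 2 (SE 0.15, adjusted p = 0.535) did not pass. The difference of these 2 effects (0.96, SE 0.21, adjusted p = 0.0678) did not pass either. Myc fell by 0.58 in experiment 1 (SE 0.09, adjusted p = 0.000769; -0.38 with cyclic loess), from 347 ± 29.8 to 232 ± 9.66 CPM, and stood at 734 ± 29.6 and 904 ± 111 CPM in experiment 2, where a change of 0.30 (SE 0.09, adjusted p = 0.0649) did not pass.

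**Figure D4:**
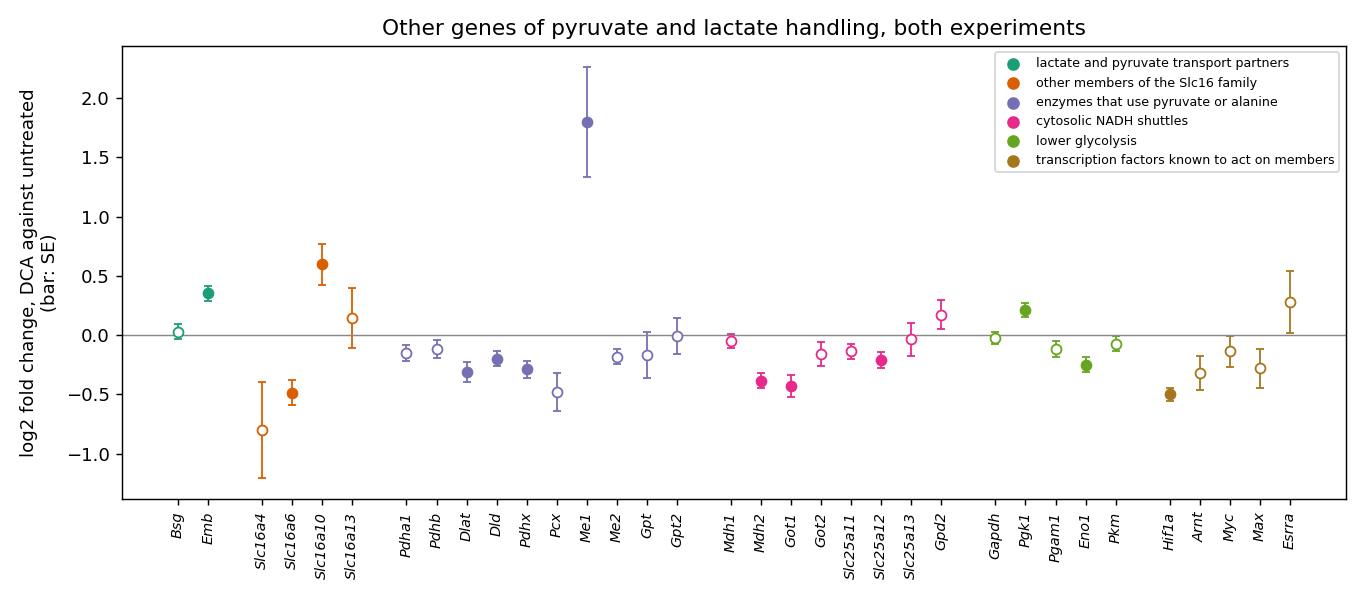
Log2 fold change for DCA against untreated over both experiments (vertical axis; bars are SE) of 34 other genes of pyruvate and lactate handling with a mean of at least 1 CPM in one arm, coloured by list. Filled points passed an adjusted p of 0.05. Emb (0.35), Slc16a10 (0.60), Me1 (1.80) and Pgk1 (0.21) are filled above 0, and 9 genes are filled below it, Hif1a at -0.50 the lowest.

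The genes whose pattern over the 12 libraries was most like each member were named by Pearson correlation of log2 CPM among 7650 genes. These values describe 12 libraries that fall into 2 experiments, so the uncorrected correlation also holds the gap between them. They were Pdcd6 and Mrpl27 for Mpc1 (both 0.998), Tma7 and Cetn3 for Mpc2 (both 0.999), Lcp1 and H2-D1 for Ldha (both 0.998), Slamf6 and Scpep1 for Ldhb (both 0.971), Nup133 (0.964) and Mcm2 (0.938) for Slc16a1, and Hk1 (0.996) and Il4ra (0.995) for Slc16a3. After the mean of each experiment was subtracted, they were Pdcd6 (0.956) and Med21 (0.950), Zscan21 (0.941) and Rbx1 (0.922), Pias1 (0.985) and Cul2 (0.970), Dynlt2b (0.978) and Slamf6 (0.963), Nup133 (0.950) and Txnl1 (0.931), and Ubald2 (0.912) and Il4ra (0.888), in the same order of members. Slamf6, a receptor of the SLAM family, was thus among the 2 nearest to Ldhb by both measures. Its rise of 2.13 with DCA (adjusted p = 1.9e-05, edgeR) is no separate result. The DCA arms are among the libraries by which it was chosen for its likeness to Ldhb.

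Among the members, Mpc1 and Mpc2 had a correlation of 0.993 over the 12 libraries and 0.823 after the mean of each experiment was subtracted. Ldha and Slc16a3 had 0.986 before and 0.031 after that step, so their likeness lay between the experiments and not among the libraries of one. Ldhb had -0.85 with Mpc2, -0.81 with Mpc1 and -0.72 with Slc16a1 after the subtraction. All 12 libraries are shared by each of these values, and the DCA arms are among the points.

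**Figure D5:**
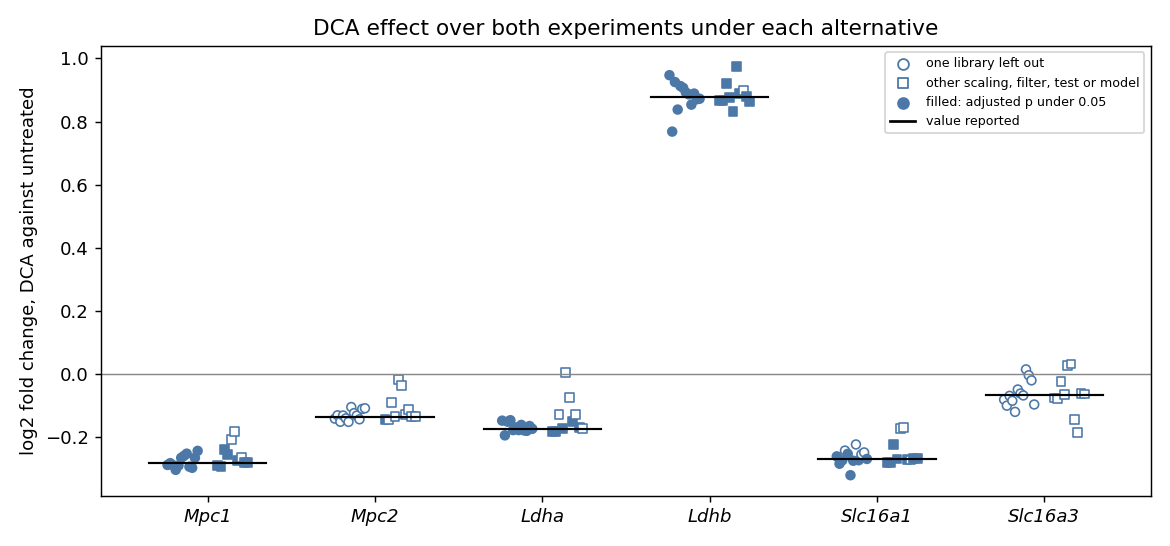
Log2 fold change for DCA against untreated over both experiments (vertical axis) of each gene under each alternative. Circles leave out 1 library each, squares change the scaling, filter, test or model, filled symbols passed an adjusted p of 0.05, and the black line is the value reported. Ldhb stays between 0.77 and 0.97 and loses its call in 1 of 22 alternatives. Ldha lies above 0 in 1 alternative, a square, and Slc16a3 in 3, among them a circle.

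In the authors' deposited table, which compares DCA with untreated cells over all 12 libraries, the log2 fold changes were -0.28 for Mpc1 (false discovery rate 0.0548), -0.13 for Mpc2 (0.575), -0.17 for Ldha (0.318), -0.27 for Slc16a1 (0.0982) and -0.06 for Slc16a3 (0.858). Of the 15067 genes in that table, 1588 had a rate under 0.05. The fold changes differ from those given above by less than 0.01, and 3 genes called above (Mpc1, Ldha and Slc16a1) were not called there. That table also holds unshrunk log2 fold changes, which the quasi-likelihood test used above does not give, so the 2 tests may not be alike. Unadjusted p-values were 0.288 there and 0.0160 in the quasi-likelihood test for Mpc2, and 8.33e-06 and 5.79e-06 for Ldhb. Whether the lost calls come from the test was not tested.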

How the data were processed

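Bulk RNA was sequenced from 12 libraries of CD8+ T cells in 4 groups of 3, taken from the labels. The authors deposited whole-number read counts per gene, not normalized. Reads were handled with STAR 2.7.10a and fastp 0.23.2 on GRCm39 and tested with edgeR 3.36.0, per the submitters' processing notes. Counter, annotation release and strand are not given in the sources. Antisense and overlapping genes therefore cannot be separated. The authors' deposited table gives log2 fold changes (also in an unshrunk form), log2 CPM, p-values, false discovery rates and gene lengths in bases, per the file headers. Symbols of tested genes were in that table for 15067 genes; 577 more were named from a GRCm38 reference, and 44 had none. There were 0 unmapped columns.

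For the counts, edgeR 4.0.16 was run under R 4.3.3 (quasi-likelihood, TMM, filterByExpr by the 4 groups, Benjamini-Hochberg, threshold 0.05), with a term for experiment over both experiments and a fit of 4 group means for the other 5 of 6 comparisons. SE is the absolute log2 fold change over the root of F. Single-gene adjusted p-values are from this test unless another tool is named. The script was tested on simulated data. Within-library ratios were tested by exact sign changes over 6 mice. Promoters are from RefSeq (GRCm38.p6); all 6 genes matched. Near-identical copies (at least 90% identity over 200 bases) were found with blastn 2.17.0+ in GENCODE transcripts.

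The 6 genes, 7 lists of 51 genes (37 tested) and 8 marker lists were chosen with earlier results of these data known. Named genes were the 6, the lists, and the 2 most correlated genes per member that had an established symbol and averaged 3 or more in log2 CPM (prior count 2). Alternatives were RLE factors, cyclic loess with limma 3.58.1, limma-voom, DESeq2 1.42.0, no filter, 5 CPM in 3 libraries, a term per mouse, no experiment term, fewer libraries, each library or mouse left out, and a pseudocount of 0.5 for ratios. Library totals, principal transcript lengths and added copies were chosen after seeing the data.

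Pairing comes from the design, since 1 mouse gave both arms. Deviations from group means correlated at 0.0443 to 0.0834 within a mouse and at -0.0689 to -0.00438 between mice. No 2 replicates agreed within sampling noise (chi-square per degree of freedom 10.8 to 29.8). No molecular identifiers were named, so counting error is a lower limit on the error.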

Additional observations from a re-analysis of the deposited data

Results flagged for a closer look

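The DCA effect on Myc differed between the experiments. It was -0.58 on the log2 scale in experiment 1 and 0.30 in experiment 2, a difference of 0.88 (SE 0.12, adjusted p = 0.0107, interaction contrast of edgeR). The difference kept its direction in each of the 21 alternatives. Its call was lost without untreated replicate 1 (adjusted p = 0.0998), 2 (0.0616) or 3 (0.0844) or DCA replicate 2 (0.0920) or 3 (0.126) of experiment 2.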

How the results depend on the processing

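Across the DCA and experiment comparisons of the 6 genes, the calls of Ldhb in experiment 1 and of Mpc1, Mpc2, Ldha, Ldhb and Slc16a3 between experiments held in all alternatives run. The DCA effect changed sign under cyclic loess for Ldha (0.0063 over both experiments, 0.050 in experiment 2), Slc16a3 (0.027) and Mpc2 in experiment 1 (0.086), with library totals for Slc16a3 (0.032) and Mpc2 in experiment 1 (0.058), with a filter at 5 CPM for Mpc2 in experiment 1 (0.0055), and without DCA replicate 3 of experiment 2 for Slc16a3 (0.015; -0.12 to 0.015). Bsg turned to -0.00054 without DCA replicate 2 of experiment 1 (-0.00054 to 0.071). The difference of the DCA effects changed sign for Ldhb without DCA replicate 1 of experiment 1 (-0.010) or DCA replicate 3 of experiment 2 (-0.013; -0.013 to 0.41 over the fits that leave out 1 library) and for Slc16a1 without untreated replicate 3 of experiment 1 (0.045; -0.20 to 0.045). The causes were not tested.

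The replicate block, a term per mouse, left 24 genes whose DCA effect differed between experiments, 2094 called over both experiments, and ended the calls of Ldha, Dld, Slc16a10, Slc25a12 and Pgk1 over both experiments; it changed no other call among the 6 genes and the called genes of the lists. Against 52 genes with a difference between experiments, cyclic loess gave 30, DESeq2 458 and no filter 566. Against 717 genes in experiment 2, limma-voom gave 1171, DESeq2 1512, no filter 1116 and its 6 libraries alone 1564; in experiment 1 its 6 libraries alone gave 1251 against 2622. Without a term for experiment 46 genes were called over both experiments. Leaving out 1 library gave 1981 to 2588 genes over both experiments, 1759 to 2653 in experiment 1, 210 to 824 in experiment 2 (without untreated replicate 2 the lowest, and 260 and 271 without DCA replicate 1 and 2), 1 to 217 for the difference (the highest without untreated replicate 3 of experiment 1; 18 and 11 without untreated replicates 1 and 2 and 143 without DCA replicate 2 of that experiment; 1 to 7 without any library of experiment 2), and 7435 to 8361 and 7261 to 8422 between experiments in untreated and DCA cells. Where this left 2 libraries in a group, the spread was pooled over the groups. Leaving out 1 mouse gave 1.00 to 1.08 for the ratio of Ldhb to Ldha and -0.17 to -0.11 for Mpc1 to Mpc2. Each had an adjusted p of 0.0938 in the exact sign-change test, where 5 pairs cannot bring even the unadjusted p under 0.05. With near-identical copies added these 2 ratios changed by 1.03 and -0.12, both at an adjusted p of 0.0938, and Ldhb to Ldha lost its call through the adjustment over 3 ratios. Other lengths moved the untreated ratios of Ldhb to Ldha and Mpc1 to Mpc2 as given above, and Slc16a3 to Slc16a1 in experiment 2 from 143% to 176%. Ldhb, at 172 counts in the library where it was counted least, is the member most limited by depth.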
